A study of Mus musculus with 6 samples.

Results

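The genes described here are those of the mitogen-activated protein (MAP) kinase cascade in mouse bone marrow-derived macrophages. They were chosen by platform symbol (Map2k, Map3k, Map4k or Mapk followed by a digit, Mapkapk, Mknk1 and Mknk2) and by detection, at a detection p-value under 0.01 for any probe on at least 1 array. Of the 44 genes with such a symbol, 26 were detected and 18 were not, among 7153 detected genes of 16593 named ones. Of the 26, 8 encode MAP3K enzymes, 1 a MAP4K (Map4k4), 5 MAP2K enzymes, 6 MAP kinases and 4 the kinases that MAP kinases activate. The other 2, Mapk1ip1 and Mapk1ip1l, matched by name only, since neither encodes a kinase. The 18 not detected were Map2k6, Map3k2, Map3k4, Map3k6, Map3k7cl, Map3k9, Map3k13, Map3k21, Map4k5, Mapk4, Mapk10, Mapk12, Mapk13, Mapk15, Mapk8ip1, Mapk8ip2, Mapk8ip3 and Mapkapk5.

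The macrophages came from female IRAK2 knockout and wild-type mice of strain 129/BL6, and were grown from marrow in L929-conditioned medium over 5 days. Cells of each genotype received R848 at 1 µg/ml for 2 h, CpG B at 1 µg/ml for 2 h, or no agent. R848 is a small-molecule agonist of Toll-like receptor 7 and CpG B is a class of oligonucleotide that engages Toll-like receptor 9. The 6 groups were thus knockout with R848, knockout with CpG B, knockout untreated, wild type with R848, wild type with CpG B and wild type untreated, with 1 Illumina bead array each, and the knockout allele and the number of mice are not given in the sources used here.

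A MAP kinase cascade is a relay of phosphorylations. A MAP3K phosphorylates a MAP2K, the MAP2K phosphorylates a MAP kinase (an ERK, a JNK or a p38), and the MAP kinase acts on transcription factors and on further kinases such as MK2, encoded by Mapkapk2. In macrophages, Toll-like receptors reach these relays through MyD88, the IRAK kinases, TRAF6 and the MAP3K TAK1 (Map3k7), and the p38 to MK2 branch is known for stabilising cytokine messenger RNAs. The arrays measured RNA only, so they report neither the phosphorylation nor the activity of any of these enzymes.

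Values are log2 normalized intensities of the probe that represents each gene, so a difference of 1 is 2-fold, and an added offset of 16 intensity units makes folds of dim genes too small. With 1 array per group a single difference has no test, and it was counted as large at an absolute normalized log2 value of at least 1, for the 26 genes and for all genes alike. Such a count, and every fitted effect, takes the normalized signal also of arrays where the probe was not detected, as for Map3k12 on both R848 arrays and Map3k14 on the wild-type one. Tests came from a limma fit of agent and genotype over all 6 arrays with 2 residual degrees of freedom, at a Benjamini-Hochberg adjusted p under 0.05 over 7153 genes. "Rose" and "fell" are used only of genes past that test, or past the 8-array limma test where that is named.

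Between 34.9% and 37.8% of the probes were detected per array, and 23 to 26 of the 26 genes. The knockout arrays with R848 and with CpG B differed little: on the submitters' normalized scale, 23 of 7153 genes (0.322%) differed by at least 2-fold between them. This is about as few as between the untreated arrays and a second untreated array of the same genotype that the processed values imply, which was 21 genes (0.294%) in knockout and 36 (0.503%) in wild type. Whether the knockout R848 and CpG B arrays hold separate samples, or 1 sample under both labels, was therefore not settled, and every knockout value given for either agent holds only if the labels do. Wild-type R848 and CpG B arrays differed in 460 genes (6.43%). The probes for Irak2 read 641 and 835 intensity units with R848, 556 and 622 with CpG B and 339 and 378 untreated in knockout cells, against 2594 and 3695 with R848, 2117 and 2618 with CpG B and 342 and 534 untreated in wild-type cells. Irak2 signal was thus above background in every knockout array, and where the probes lie relative to the deleted part was not analysed here. The 6 listed macrophage markers with a named probe (Adgre1, Itgam, Lyz2, Cd14, Fcgr1 and Mertk) were each detected on at least 1 array, and 5 of them on all 6 arrays. The 7 listed neutrophil markers with a named probe, Mpo and Elane among them, were detected on all 6 arrays. Of 7 dendritic-cell markers, 2 were detected on at least 1 array. No listed T-cell, B-cell, fibroblast, mast-cell or erythroid marker with a named probe was detected on any array, and the erythroid list had only 1 such marker.

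With stimulation some genes of the cascade were higher and others lower. The MAP3K gene Map3k8 and the p38-activated kinase gene Mapkapk2 were higher in every stimulated array than in the untreated array of its genotype, while Map3k12, Mknk2, Map3k1 and Map2k3 were lower in each. Over both genotypes R848 raised 4 of the 26 genes (Map3k8, Mapkapk2, Mapk1ip1l and Mapk6) and lowered 4 (Map3k12, Mknk2, Map3k1 and Map2k3). Among all 7153 genes 12.1% rose and 17.3% fell, so 4 of 26 in each direction is close to the background. CpG B raised 1 of the 26, Mapkapk2, against 4.7% of all genes that rose and 3.98% that fell. The median R848 effect over the 26 genes was -0.07 and over all genes -0.08, and the median CpG B effects were -0.00053 and -0.04. No other member was called for CpG B, and since both effects are measured against the same untreated arrays they are given side by side and not compared. The R848 count fell to 0 of 26 when either untreated array was left out, which leaves 1 residual degree of freedom and 23 or 2 calls among all genes, and it was 5 without the wild-type R848 array. The CpG B count was 0 without either untreated array and 6 without either R848 array. Shares of all genes called without an R848 array are not given here, so the counts of those fits have no background beside them. The summed deposited intensity of the 6 macrophage markers, not normalized between arrays, was higher in each stimulated array than in the untreated array of its genotype. It was 67672 with R848, 65479 with CpG B and 48293 untreated in knockout cells, and 79534 with R848, 78696 with CpG B and 60824 untreated in wild-type cells, and its part in these results was not tested.

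**Figure D1:**
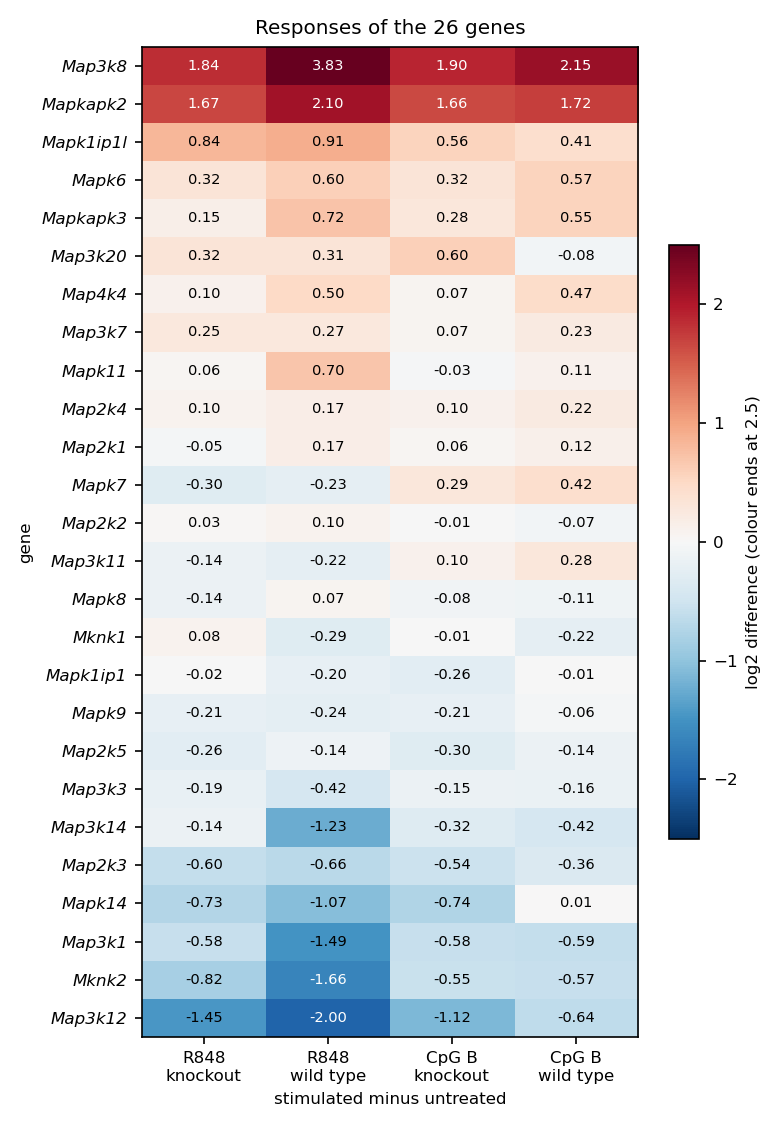
Log2 difference of each stimulated array from the untreated array of the same genotype for the 26 genes, ordered by their mean over the 4 columns, with the value printed in each cell. Map3k8 and Mapkapk2 are the darkest red rows, with 1.66 to 3.83, and Map3k12 is the bottom row, with -0.64 to -2.00.

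In the MAP3K tier, Map3k8 was higher under each agent in each genotype. It encodes TPL2, which phosphorylates the ERK activators MEK1 and MEK2 and is needed for ERK activation by Toll-like receptors in macrophages. Its log2 intensity was 9.79 with R848, 9.85 with CpG B and 7.95 untreated in knockout cells, and 11.61 with R848, 9.92 with CpG B and 7.77 untreated in wild-type cells. Every stimulated array therefore lay above both untreated arrays, and the wild-type R848 array stood above the other 3 stimulated arrays. With R848, Map3k8 was 3.59-fold higher in knockout and 14.3-fold higher in wild type than untreated, and with CpG B it was 3.73-fold and 4.43-fold higher in those genotypes. Map3k8 rose with R848 over both genotypes by 2.84 on the log2 scale (SE 0.47, limma adjusted p = 0.0109). Its CpG B effect of 2.02 (SE 0.47) did not pass the test (limma adjusted p = 0.0589), although it was higher in both genotypes.

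Map3k12 encodes DLK, a kinase best known from the JNK pathway of neurons. It read 6.37 with R848, 6.71 with CpG B and 7.83 untreated in knockout cells, and 6.06 with R848, 7.42 with CpG B and 8.06 untreated in wild-type cells. The R848 arrays were the only arrays on which its probe was not detected, so the R848 values are limits: Map3k12 was at least 2.19-fold lower with R848 in knockout and at least 2.38-fold lower in wild type than untreated. Here and below, such a limit sets the dim array at its lowest detected signal. The other probes for this gene were detected on 0 arrays, at -8.7 to 15.4 intensity units, so its values rest on the representing probe alone. By that probe Map3k12 fell with R848 over both genotypes, by 1.73 on the log2 scale (SE 0.24, limma adjusted p = 0.00749). With CpG B it was 2.17-fold lower in knockout and 1.56-fold lower in wild type, and this effect of -0.88 did not pass (SE 0.24, limma adjusted p = 0.0877).

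Map3k1 encodes MEKK1, a MAP3K of the JNK branch that is also a ubiquitin ligase. Its values were 9.69 with R848, 9.68 with CpG B and 10.26 untreated in knockout cells, and 9.05 with R848, 9.95 with CpG B and 10.54 untreated in wild-type cells. All 4 stimulated arrays were below both untreated arrays. Map3k1 was 1.49-fold lower with R848 in knockout and 2.80-fold lower in wild type, and it fell over both genotypes by 1.03 (SE 0.25, limma adjusted p = 0.0311), a call that was lost without the wild-type R848 array.

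Map3k14 encodes NIK, the kinase of the alternative NF-κB pathway. It read 7.53 with R848, 7.36 with CpG B and 7.68 untreated in knockout cells, and 6.36 with R848, 7.17 with CpG B and 7.59 untreated in wild-type cells. A single array, wild type with R848, stood apart, and there the probe was not detected. In wild type Map3k14 was at least 1.72-fold lower with R848 than untreated, against a log2 difference of -0.14 in knockout. Over both genotypes its R848 effect of -0.69 did not pass the test (SE 0.28, limma adjusted p = 0.119).

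The other MAP3K genes and Map4k4 varied little. TAK1 (Map3k7), the MAP3K that joins Toll-like receptors to both the MAP kinases and NF-κB, was between 8.61 and 8.87 in knockout cells and between 8.36 and 8.63 in wild-type cells. Its R848 effect was 0.26 (SE 0.12, limma adjusted p = 0.157). Map3k3 (MEKK3), Map3k11 (MLK3, a JNK-branch kinase), Map3k20 (ZAK, a kinase of the ribotoxic stress response) and Map4k4 (which acts above MAP3Ks) had responses between -0.42 and 0.60, and none was called on 6 arrays. Map3k20 was measured by 7 probes, 3 of them detected, which did not move alike: its CpG B response in knockout was 0.60 by the representing probe, 0.21 and -0.10 by the other detected probes.

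Of the MAP2K genes, Map2k3 alone responded past the test on 6 arrays. It encodes MKK3, which activates p38 kinases. Its values were 11.95 with R848, 12.01 with CpG B and 12.55 untreated in knockout cells, and 11.78 with R848, 12.08 with CpG B and 12.44 untreated in wild-type cells. All 4 stimulated arrays were below both untreated arrays. R848 gave 1.51-fold lower values in knockout and 1.59-fold lower values in wild type, and Map2k3 fell over both genotypes by 0.63 (SE 0.13, limma adjusted p = 0.0186), which was lost without the wild-type R848 array. Map2k1 and Map2k2, which encode the MEK1 and MEK2 that TPL2 phosphorylates, had responses between -0.07 and 0.17. Map2k4 (MKK4, which activates JNK and p38) was between 0.10 and 0.22 higher in each stimulated array, and Map2k5 (MEK5, which activates ERK5) had responses between -0.30 and -0.14, and neither was called for either agent.

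Among the MAP kinases, Mapk14 was lower with R848. It encodes p38α, the main p38 of macrophages. Its values were 10.78 with R848, 10.77 with CpG B and 11.51 untreated in knockout cells, and 10.06 with R848, 11.13 with CpG B and 11.12 untreated in wild-type cells. The stimulated arrays were below the untreated array of their genotype, except that of wild type with CpG B, which equalled it to 0.01. Mapk14 was 1.66-fold lower with R848 in knockout and 2.09-fold lower in wild type, and the effect over both genotypes, -0.90 (SE 0.26), just missed the threshold (limma adjusted p = 0.0509). With CpG B it differed from untreated by -0.74 in knockout and by 0.01 in wild type.

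Mapk6 encodes ERK3, an atypical MAP kinase. It read 11.26 with R848, 11.27 with CpG B and 10.94 untreated in knockout cells, and 11.12 with R848, 11.08 with CpG B and 10.52 untreated in wild-type cells. Each stimulated array was above both untreated arrays. Mapk6 rose with R848 over both genotypes by 0.46 (SE 0.13, limma adjusted p = 0.0491), the narrowest call of the 8, and leaving out any of the 6 arrays ended it (limma adjusted p between 0.0604 and 0.305). The other MAP kinase genes were not called on 6 arrays. Mapk11 (p38β) read 7.60 in the wild-type R848 array and 6.88 to 7.01 in the other 5. The JNK genes Mapk8 and Mapk9 had responses between -0.24 and 0.07 by their representing probes. Another Mapk9 probe, detected on all 6 arrays, gave R848 responses of 0.13 in wild type and -0.28 in knockout. Its CpG B responses were -0.11 and -0.06 in that order. Mapk7 (ERK5) was detected on the wild-type CpG B array only, so no fold was taken from it.

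Mapk1ip1l, which carries the MAP kinase name without being a kinase, was 10.20 with R848, 9.93 with CpG B and 9.36 untreated in knockout cells, and 10.59 with R848, 10.09 with CpG B and 9.67 untreated in wild-type cells. R848 and CpG B values were above the untreated value in both genotypes, and R848 above CpG B. It rose with R848 over both genotypes by 0.88 (SE 0.13, limma adjusted p = 0.00764), being 1.79-fold higher in knockout and 1.89-fold higher in wild type. Mapk1ip1 had responses between -0.26 and -0.01 and was not called.

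Of the kinases that MAP kinases activate, Mapkapk2 was higher in all 4 stimulated arrays, by 1.66 to 2.10. It encodes MK2, which p38 activates and which acts on RNA-binding proteins of cytokine messages. Its values were 13.25 with R848, 13.23 with CpG B and 11.58 untreated in knockout cells, and 13.39 with R848, 13.01 with CpG B and 11.29 untreated in wild-type cells. The 4 stimulated arrays lay within 0.38 of each other, all above both untreated arrays. Mapkapk2 rose with R848 by 1.88 (SE 0.15, limma adjusted p = 0.00221) and with CpG B by 1.69 (SE 0.15, limma adjusted p = 0.00608). By genotype it was 3.19-fold higher with R848 in knockout and 4.27-fold higher in wild type, and 3.16-fold and 3.29-fold higher with CpG B in those genotypes.

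Mknk2 encodes MNK2, a kinase of the translation factor eIF4E. It read 10.36 with R848, 10.63 with CpG B and 11.18 untreated in knockout cells, and 9.46 with R848, 10.55 with CpG B and 11.12 untreated in wild-type cells. All stimulated arrays were below both untreated arrays, and the wild-type R848 array was the lowest. Mknk2 fell with R848 over both genotypes by 1.24 (SE 0.23, limma adjusted p = 0.015), being 1.77-fold lower in knockout and 3.16-fold lower in wild type. Its close relative Mknk1 had responses between -0.29 and 0.08 and was not called.

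**Figure D2:**
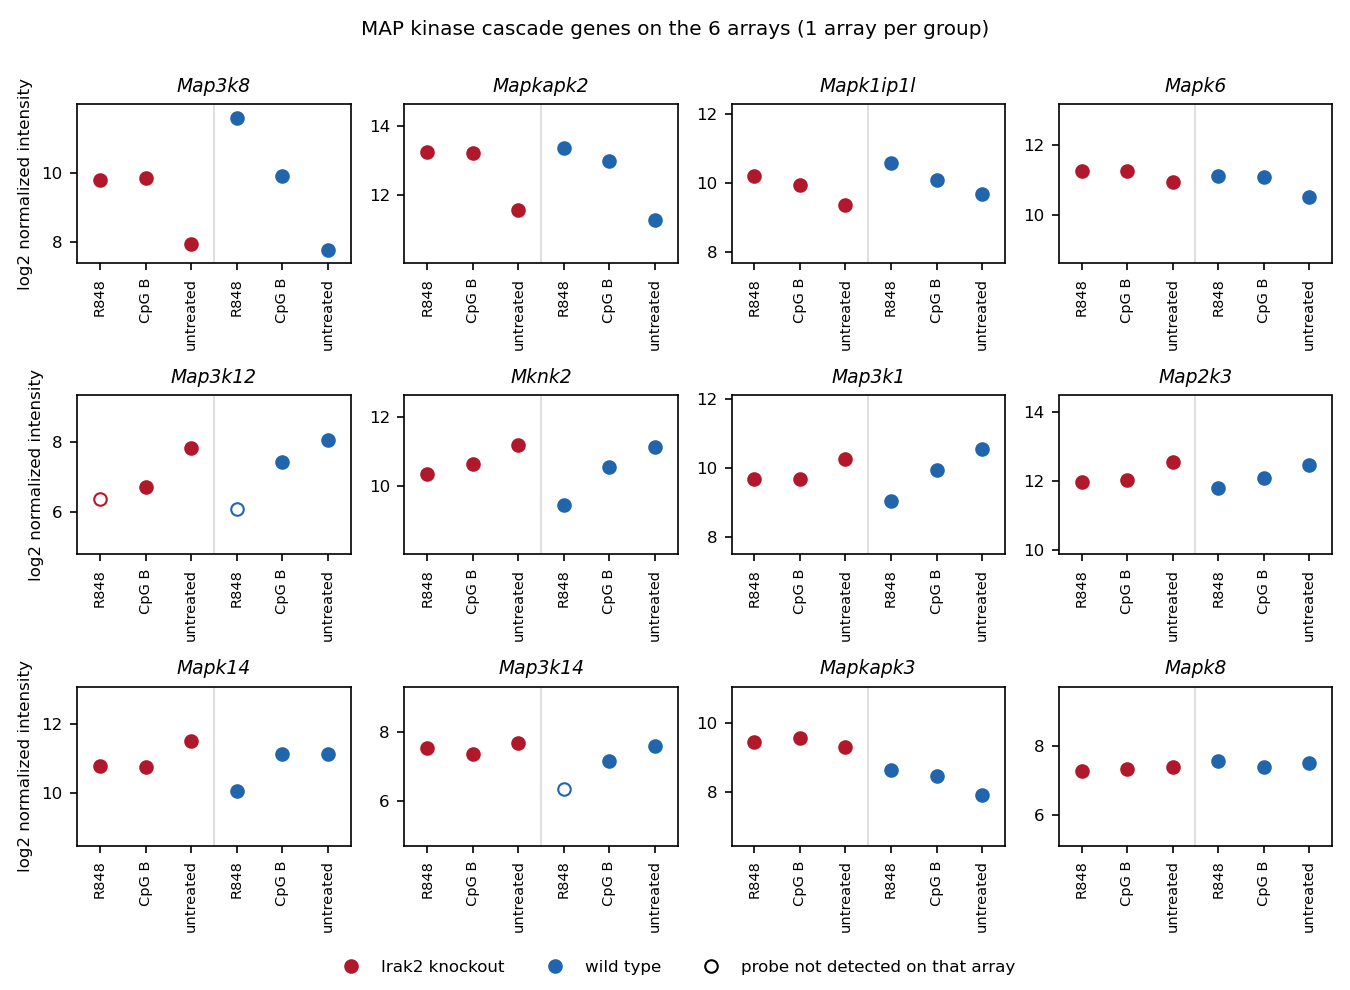
Log2 normalized intensity on each of the 6 arrays (1 per group) for 12 of the genes, knockout arrays in red to the left and wild-type arrays in blue to the right, with open circles where the probe was not detected. All panels span the same number of log2 units, so the gap between Map3k8 in the wild-type R848 array (11.61) and the untreated array (7.77) can be set by eye against the flat Mapk8, shown as a gene without a call.

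Promoter windows, from 250 bases before to 50 after the RefSeq start site on build GRCm38.p6, were at hand for 23 of the 26 genes. Map3k8, Map4k4 and Mapk1ip1 had no window, so the matches below do not cover them. The windows of 3 genes that changed with R848 are shown, 1 that also rose with CpG B, 1 that rose and 1 that fell, with matches to 5 searched motifs in capitals. Mapkapk2 lies on the minus strand at chr1:131097794-131098093 and its window holds no match. Mapk1ip1l lies on the plus strand at chr14:47298024-47298323, and its window holds a match to the NF-κB consensus at positions -189 to -180 from the start. Mknk2 lies on the minus strand at chr10:80676244-80676543, and its window holds TATAAA at positions -30 to -25.
Mapkapk2: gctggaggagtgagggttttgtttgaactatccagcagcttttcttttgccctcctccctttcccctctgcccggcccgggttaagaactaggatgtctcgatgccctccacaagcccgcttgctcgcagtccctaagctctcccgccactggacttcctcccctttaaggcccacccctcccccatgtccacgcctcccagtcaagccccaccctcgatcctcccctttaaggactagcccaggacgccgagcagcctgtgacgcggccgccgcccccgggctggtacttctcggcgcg
Mapk1ip1l: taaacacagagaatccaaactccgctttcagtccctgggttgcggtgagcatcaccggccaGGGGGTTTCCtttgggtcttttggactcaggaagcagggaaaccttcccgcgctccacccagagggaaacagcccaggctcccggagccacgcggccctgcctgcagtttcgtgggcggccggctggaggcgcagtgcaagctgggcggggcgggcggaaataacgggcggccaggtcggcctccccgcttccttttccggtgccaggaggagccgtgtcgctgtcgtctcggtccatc
Mknk2: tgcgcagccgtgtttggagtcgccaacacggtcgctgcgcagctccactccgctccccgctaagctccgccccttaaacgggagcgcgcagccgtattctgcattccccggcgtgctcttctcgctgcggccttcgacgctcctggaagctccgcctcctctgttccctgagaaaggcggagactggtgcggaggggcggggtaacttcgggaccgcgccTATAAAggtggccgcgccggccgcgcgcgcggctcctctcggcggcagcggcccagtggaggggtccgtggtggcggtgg
Both strands were searched. An NF-κB consensus match occurred in 3 of the 23 genes (Map3k7, Mapk1ip1l and Mapk7) and in 8.18% of 27025 promoters of this length. The CRE core TGACGT occurred in 4 of the 23 (Map2k1, Map3k7, Mapk6 and Mapk8) and in 7.64% of all, TGANTCA (AP-1) in 0 and in 7.93%, TTCNNNGAA (GAS) in 1 and in 8.47%, and TATAAA in 1, Mknk2, and in 14.2%. These are letter matches in a short window, each gene taken by the start that the RefSeq table lists first.

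The responses were also counted in each genotype on its own. With R848, 2 of 25 genes were past the size of 1 upwards in knockout (Map3k8 and Mapkapk2) and 1 downwards (Map3k12), against 5.77% and 4.68% of all tested genes. In wild type 2 of 25 were higher (the same genes) and 5 lower (Map3k12, Mknk2, Map3k1, Map3k14 and Mapk14), against 7.69% and 7.88%. By measured folds or limits 4 of these 5 were at least 2-fold lower, since the limit of Map3k14 is 1.72-fold. With CpG B the counts were 2 higher and 1 lower of 25 in knockout (backgrounds 4.63% and 3.37%) and 2 higher and 0 lower of 26 in wild type (3.64% and 1.6%), Map3k8 and Mapkapk2 being the higher ones in each genotype and Map3k12 the lower one in knockout.

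A further limma fit, added after the data had been seen, models the 6 group means on 8 arrays and gives these responses a test. Its second untreated array of each genotype was worked out from the processed values, the spread comes from the untreated pairs alone, and it may be technical. Within those pairs the 26 genes differed by at most 0.33 in knockout (Map2k1) and 0.57 in wild type (Mapk7). With R848, 3 of the 26 rose in knockout (Map3k8, Mapkapk2 and Mapk1ip1l) and 3 fell (Map2k3, Map3k12 and Mknk2), against 7.97% and 9.6% of all genes. In wild type 5 rose (Map3k8, Mapkapk2, Mapk1ip1l, Mapk11 and Mapkapk3) and 6 fell (Map3k12, Mknk2, Map3k1, Map3k14, Mapk14 and Map2k3), against 12.3% and 17%. CpG B raised Map3k8 and Mapkapk2 in both genotypes and lowered Map3k12 in knockout, against 5.84% of all genes that rose and 5.47% that fell in knockout, and 3.7% and 1.58% in wild type. Among these, Map3k8 rose with CpG B by 1.79 in knockout (SE 0.24, limma adjusted p = 0.00769) and by 1.85 in wild type (SE 0.24, limma adjusted p = 0.0109). Leaving out 1 of the 4 untreated arrays at a time gave 3 to 5 R848 calls in knockout and 9 or 10 in wild type, and the CpG B counts stayed at 3 and 2. Over both genotypes this fit called 12 of the 26 with R848 (15.7% of all genes rose and 22.6% fell), the 8 named above and Map3k3, Map3k14, Mapk11 and Mapk14. It called 7 with CpG B (8.44% and 9.95%), of which Map3k8, Mapkapk2 and Mapk1ip1l rose and Map2k3, Map3k1, Map3k12 and Mknk2 fell.

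R848 and CpG B were given at the same mass dose and time, and their arrays were compared directly. In knockout cells 0 of 25 genes were past the size of 1 between the agents (0.148% of all genes were higher and 0.074% lower with R848), and the 25 differences ran from -0.34 to 0.27. In wild-type cells 1 of 26 was past it upwards with R848 (Map3k8) and 3 downwards (Map3k12, Mknk2 and Mapk14), against 3.65% and 2.65% of all genes, and 2 of these 3 were at least 2-fold lower by a measured fold, Map3k12 having only a limit. Map3k8 differed by -0.06 between R848 and CpG B in knockout and was 3.22-fold higher with R848 in wild type. Mknk2 differed by -0.27 in knockout and was 2.12-fold lower with R848 in wild type, and Mapk14 differed by 0.01 in knockout and was 2.10-fold lower in wild type. Map3k12 was at least 1.01-fold lower with R848 in knockout and at least 1.53-fold lower in wild type. Map3k1 (0.01 in knockout and -0.90 in wild type) and Map3k14 (0.17 in knockout and -0.81 in wild type) fell short of 2-fold.

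Over both genotypes the difference between the agents passed the limma test on 6 arrays for 0 of the 26 genes and 0 of 7153. At an unadjusted limma p under 0.05 were 5 of the 26 and 943 of 7153. On 8 arrays, in wild type, Map3k8 was higher with R848 by 1.64 (SE 0.28, limma adjusted p = 0.0305, between 0.0364 and 0.0718 with 1 untreated array left out), Map3k12 was at -1.38 and Mapk14 at -1.05, where 2.67% of all genes were called higher and 2.82% lower. The call of Map3k8 was lost without either knockout untreated array, that of Map3k12 without either wild-type untreated array, and that of Mapk14 without any of the 4. In knockout the same fit called 0 of the 26 and 0 of 7153, with 1 and 229 at an unadjusted p under 0.05.

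**Figure D3:**
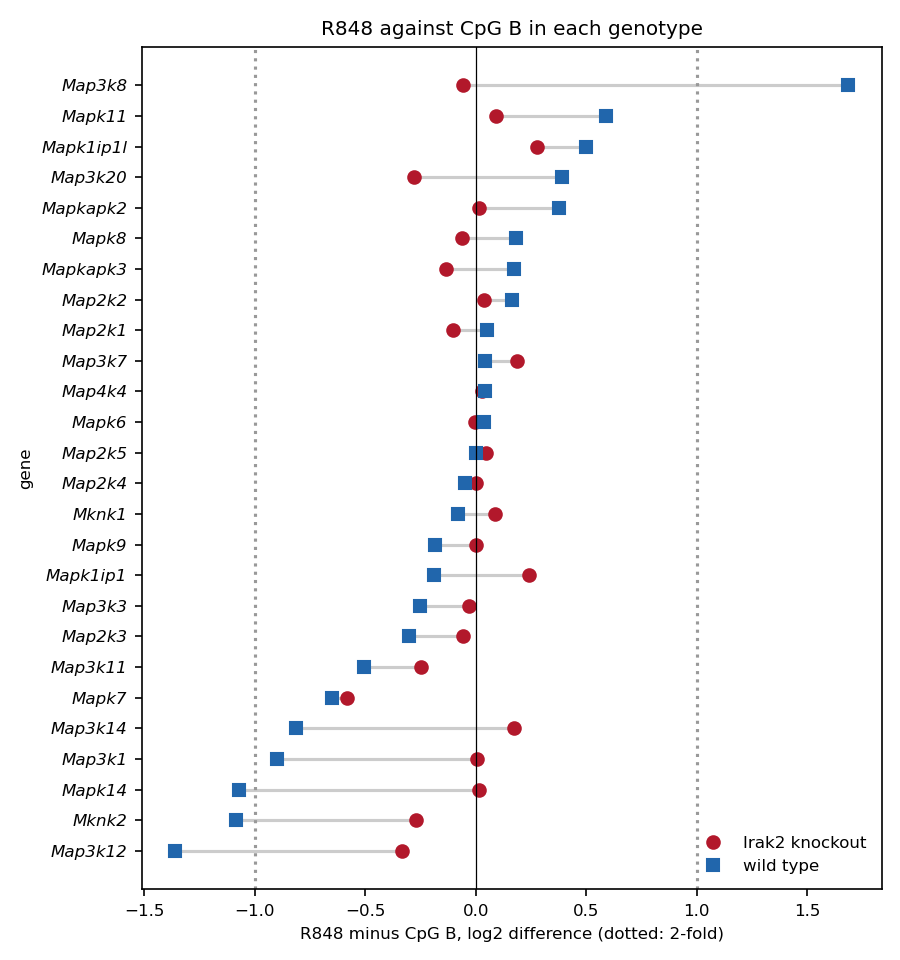
Log2 difference between the R848 and the CpG B array of each genotype for the 26 genes (knockout circles, wild-type squares, joined by a grey bar), with dotted lines at 2-fold. For the 25 genes detected in knockout cells the circles lie between -0.34 and 0.27, Mapk7 being detected on neither array, while the squares of Map3k8 and of 3 genes at the bottom are past the dotted lines, among them Map3k12, which the wild-type R848 array did not detect.

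Between genotypes, 1 gene stood out. Mapkapk3, which encodes MK3, the close relative of MK2 that p38 also activates, was higher in all 3 knockout arrays. It read 9.44 with R848, 9.57 with CpG B and 9.29 untreated in knockout cells, and 8.63 with R848, 8.46 with CpG B and 7.91 untreated in wild-type cells. The knockout array was 1.74-fold higher with R848, 2.16-fold higher with CpG B and 2.60-fold higher untreated. Over all agents Mapkapk3 rose in knockout by 1.10 (SE 0.14, limma adjusted p = 0.0184), the only call among the 26, where 1.76% of all genes were higher and 1.64% lower. The call was lost without either CpG B array or either untreated array (limma adjusted p up to 0.17). The 3 arrays of a genotype are not known to come from separate mice.

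Mapkapk3 lies on chromosome 9, and the genotype effect was looked up in the genes beside it in the RefSeq order. Of the 10 tested genes on each side, 5 of 20 (25.0%) were called, against 31 of 406 (7.64%) on chromosome 9 as a whole and 212 of 6744 (3.14%) on other chromosomes. The 4 higher neighbours were Dusp7, a MAP kinase phosphatase gene (1.88), Parp3 (1.42), Rpl29 (0.93) and Ifrd2 (0.72), and the lower one was Hemk1 (-1.24). The other chromosome 9 genes of the cascade were not called: the genotype effect was -0.02 for Map2k1, -0.04 for Map2k5 and 0.25 for Mapk6. Mapk6 was still higher in each knockout array, by 0.14 with R848, 0.19 with CpG B and 0.43 untreated. Its other detected probe, detected on all 6 arrays, gave 0.51, 0.32 and 0.80 in that order. Marker levels also moved with genotype. The summed intensity of the 7 neutrophil markers, all detected on every array, was 8417 to 12880 units in knockout cells and 17260 to 19171 in wild-type cells. The macrophage sum was also lower in knockout: 67672 against 79534 with R848, 65479 against 78696 with CpG B and 48293 against 60824 untreated. Such sums are of deposited intensities, not normalized between arrays, and the highest probe read 34572 to 36022 on knockout arrays and 40224 to 45638 on wild-type ones. The dendritic-cell list had 2 of 7 genes detected (H2-Ab1 and Siglech), 1 on all 6 arrays and the other on the wild-type CpG B array only. Flt3, Zbtb46, Itgax, Ccr7 and Xcr1 were not detected. The list summed to 2878 to 3904 in knockout and 929 to 2087 in wild type. With 1 gene detected throughout, this sum does not stand for the cell type. The part of these marker levels in the genotype differences was not tested, and in bulk RNA fewer cells of a type and less RNA per cell cannot be told apart.

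After R848, Map3k8 was lower in knockout. Of 24 genes, 1 was past the size of 1 upwards in knockout (Map3k14) and 1 downwards (Map3k8), against 2.2% and 2.48% of all genes. By measured folds or limits, 0 genes were at least 2-fold higher and 1 was at least 2-fold lower. Map3k8 was 3.52-fold lower in knockout with R848, while the genotypes differed by -0.07 with CpG B and by 0.18 untreated. Map3k14 was at least 1.65-fold higher in knockout with R848, and differed by 0.19 with CpG B and 0.09 untreated. Mknk2 (0.90), Mapk14 (0.72) and Map3k1 (0.63) were higher in knockout with R848 by less than 2-fold. Under CpG B 1 of 26 was higher (Mapkapk3) and 0 lower, and without stimulation 1 of 25 (Mapkapk3) and 0 lower, where 1.65% and 1.08% of all genes were past 2-fold with CpG B and 1.2% and 0.951% without stimulation.

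The difference of the R848 responses, knockout minus wild type, was -1.99 for Map3k8 (1.84 in knockout and 3.83 in wild type), the 1 gene of 25 at or below -1, against 2.15% of all genes. Map3k14, the 1 gene at or above 1 (1.17% of all genes), was at 1.09 by normalized values, and at 0.64 with the wild-type R848 array, which did not detect it, set at its lowest detected signal. Map3k1 (0.91) and Mknk2 (0.83) followed, and both were lower by less in knockout. For CpG B the differences lay between -0.75 (Mapk14) and 0.67 (Map3k20), with 0 of 26 past 2-fold, against 0.861% of all genes above and 0.395% below. An interaction shared by both agents, fitted with limma on 6 arrays with 1 residual degree of freedom, was called for 0 of the 26 and 0 of 7153 genes, with 0 and 137 at an unadjusted p under 0.05.

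On 8 arrays, limma called 2 of the 26 genes between genotypes after R848. By the normalized signal of that undetected probe, Map3k14 was higher in knockout by 1.18 (SE 0.18, limma adjusted p = 0.0317, between 0.0695 and 0.0916 with 1 untreated array left out) and Map3k8 was at -1.77 (SE 0.28, limma adjusted p = 0.0336, between 0.047 and 0.0874), where 1.58% of all genes were called higher and 1.66% lower. Map3k14 lost its call without any of the 4 untreated arrays and Map3k8 without either knockout one. Untreated Mapkapk3 was higher in knockout by 1.24 (SE 0.14, limma adjusted p = 0.0129, between 0.0637 and 0.116 with 1 untreated array left out), where 1.27% and 1.15% of all genes were called. With CpG B none of the 26 was called and 3 had an unadjusted p under 0.05, among them Mapkapk3 at 1.10 (SE 0.19, limma adjusted p = 0.0774), where 0.741% of all genes were called higher and 0.503% lower. The difference of R848 responses itself was called for 0 of the 26 and 11 of 7153 genes (0.028% upwards and 0.126% downwards). Map3k8 was at -1.76 (SE 0.34, limma adjusted p = 0.173), and at -1.76 when the fit took only the 6369 genes that both deposited untreated arrays detected (SE 0.30, limma adjusted p = 0.0305). Each of these contrasts that involves an agent sets single stimulated arrays against the spread within the untreated pairs. It does not measure the spread between stimulated samples. The untreated contrast rests on the same pairs, whose spread may be technical.

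**Figure D4:**
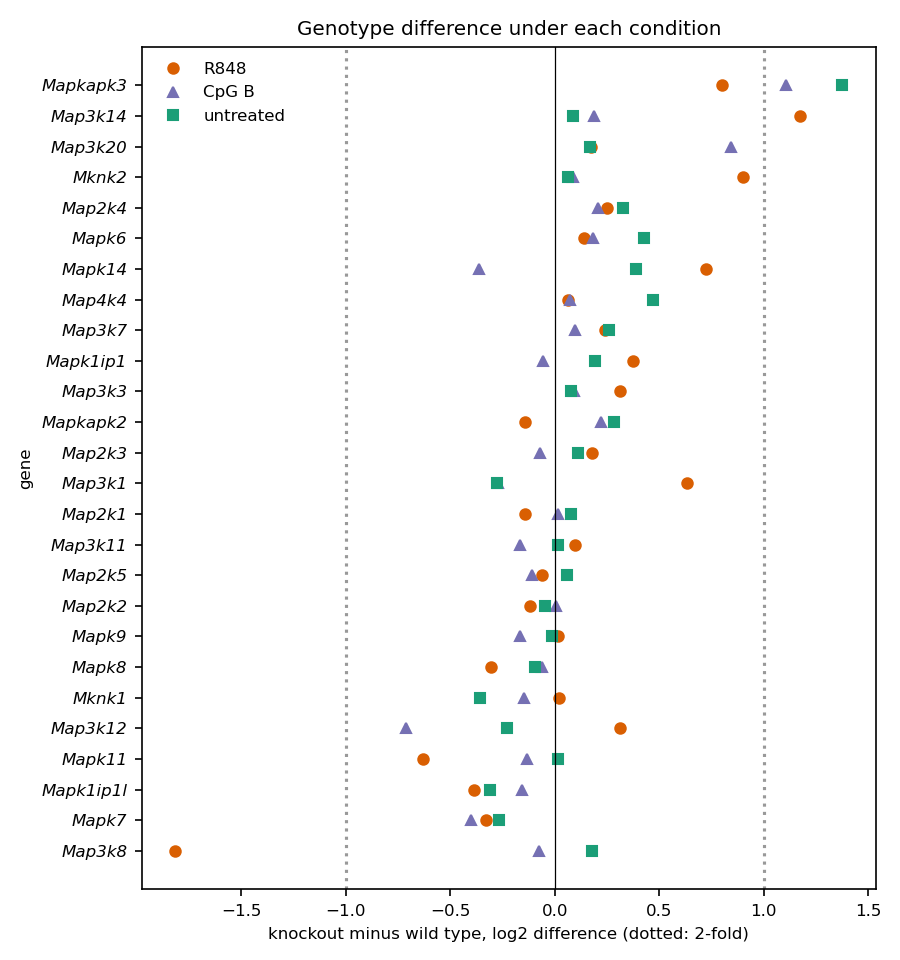
Knockout minus wild type log2 difference under R848 (circles), CpG B (triangles) and no agent (squares) for the 26 genes, ordered by the mean of the 3, with dotted lines at 2-fold. Mapkapk3 at the top is to the right of 0.80 under all 3 conditions, and Map3k8 at the bottom is at -1.82 with R848 and within 0.18 of 0 otherwise.

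The genes around the cascade were taken from lists chosen with earlier results of these data known. Of 7 tested MAP kinase phosphatases, which switch the kinases off, 3 rose with R848 and 2 fell, where 12.1% of all genes rose and 17.3% fell, with a median effect of 0.82 against -0.08 over all genes. Dusp2 rose by 3.57 (SE 0.65, limma adjusted p = 0.0141), Dusp16 by 2.51 and Dusp8 by 1.02, while Dusp6, a phosphatase of ERK, fell by 2.81 (SE 0.57, limma adjusted p = 0.0194) and Dusp7 fell by 1.26. Dusp2 was detected on 4 of 6 arrays and Dusp8 on 2, so their sizes depend on the offset. Dusp6 read 11.60 with R848, 12.01 with CpG B and 13.22 untreated in knockout cells, and 9.07 with R848, 11.73 with CpG B and 13.07 untreated in wild-type cells, so that the wild-type R848 array stood apart from the other 5. With CpG B 1 of the 7 rose, Dusp8, by 0.87. Of 8 genes of RAS and RAF entry, Rras rose with R848 by 0.91, and Rasgrp3, a RAS exchange factor, fell by 3.67 (SE 0.26, limma adjusted p = 0.00172) and Rasa1, a RAS GTPase activator, fell by 1.01. Rasgrp3 also fell with CpG B, by 2.19.

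Of 16 receptor-proximal genes, 7 rose and 1 fell with R848, where 12.1% of all genes rose and 17.3% fell. With CpG B 5 rose and 1 fell, against 4.7% and 3.98%, and the median effects were 0.28 with R848 and 0.25 with CpG B. The largest fitted R848 effects were those of Gadd45b (3.84 with R848, SE 0.39, limma adjusted p = 0.00337, and 3.31 with CpG B), Tnip1 (3.19 and 2.96), Irak3, an inhibitory IRAK (2.37 and 1.52), and Gadd45a (2.27 and 1.52). The product of Gadd45b binds the MAP3K MTK1, whose gene Map3k4 was not detected on any array. Gadd45b was detected on 4 of 6 arrays, so its size depends on the offset. Gadd45g fell by 2.24 with R848 and by 1.63 with CpG B. Among 6 scaffold genes none was called with R848 and Spag9 rose with CpG B by 0.57. Of the ribosomal S6 kinase genes, 2 were tested, and Rps6ka5, which encodes the MAP kinase-activated kinase MSK1, fell by 1.22 with R848 (SE 0.13, limma adjusted p = 0.00344) and by 0.62 with CpG B.

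Of 15 genes for transcription factors that MAP kinases act on, R848 raised 6 and lowered 4, against 12.1% and 17.3% of all genes, and CpG B raised 4 and lowered 2, against 4.7% and 3.98%. Junb rose by 1.90 and Ets2 by 1.55 with R848, and by 1.46 and 1.44 with CpG B. Mef2c fell by 2.00 (SE 0.35, limma adjusted p = 0.013), Fos by 1.51, Elk3, detected on 2 of 6 arrays, by 1.36 and Mef2a by 0.89 with R848. RNA-binding proteins that MK2 acts on and their target messages gave 7 that rose and 1 that fell of 11 with R848, against the same shares of all genes, with a median of 3.50. Of the 7 that rose, 1 encodes an RNA-binding protein and the others are target messages. The RNA-binding protein genes Elavl1 (-0.13), Khsrp (-0.31) and Hnrnpa1 (-0.18) were not called with R848, so the median reflects mostly the target messages. Cxcl1 rose by 7.40, Cxcl2 by 7.39, Tnf by 5.33 and Il6 by 5.21, and Zfp36l1 fell by 1.29, and since Cxcl1 and Cxcl2 were detected on 5 of 6 arrays and Il6 on 4, the sizes for these 3 depend on the offset. With CpG B 6 rose and 1 fell. Cxcl1 (-1.31, SE 0.10, limma adjusted p = 0.0038) and Cxcl2 (-1.05, SE 0.17, limma adjusted p = 0.0351) were also lower in knockout over all agents. None of the 7 tested reference genes was called for either agent or for genotype.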

How the data were processed

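The authors deposited a table of intensity values per probe before any normalization between arrays, with a p-value of detection beside each as the file headers give it. The submitters' processing notes name BeadStudio, without a version. Values below 0 on 33.4% to 34.4% of probes show that background had been subtracted. They also deposited processed intensity values, which for the 4 stimulated samples shared 1 distribution. Giving each deposited array that distribution by rank returned 99.7% to 99.8% of their values within 0.5 units, and quantile normalization of the 6 deposited arrays alone 50.8% to 56.9%. The processed untreated columns did not match (6.27% in knockout and 6.1% in wild type by rank), and fitted a mean of 2 arrays (99.7% of sorted values within 0.5 units, against 67.2% and 66.6% for a mean of 3). The second untreated array was recovered as 2 times the column minus the deposited array. Whether it is a separate culture is not known, so its spread may be technical.

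Of 25697 probes, 23978 had 1 gene in the platform annotation and 1719 were unnamed here and not used. A gene was represented by its probe with the highest mean log2 value. In R 4.3.3 with limma 3.58.1, neqc inferred background from the detection p-values, added an offset of 16, quantile-normalized the 6 arrays and took log2. Single-array comparisons used genes detected at p under 0.01 on at least 1 of their arrays and have no p-value. The number of arrays limits the precision throughout. The limma fits (lmFit, eBayes, Benjamini-Hochberg over 7153 genes) used agent and genotype, or these and 1 interaction. After the data had been seen, another fit was added that modelled 6 group means on the 8 arrays, at the same offset and with 2 residual degrees of freedom from the untreated pairs. Scripts were tested on simulated data.

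The genes, the lists around them and the cell-type markers were chosen with earlier results of these data known. Values on every array are given for genes past 2-fold in any single-array comparison or called by the additive fit, and from each list up to 4 called genes per direction are named. Dusp6 values by array, the neighbours of Mapkapk3 and the promoters were chosen after values were seen. The alternatives were no normexp, an offset of 50, median scaling, the processed values, the mean over detected probes, 2 other detection filters, a 1.5-fold size, no genotype term, the recovered untreated arrays and leaving out arrays. RefSeq tables of assembly GRCm38.p6 gave chromosomes, gene order and promoters.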

Additional observations from a re-analysis of the deposited data

Results flagged for a closer look

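Map3k8 passed a test of the difference between genotypes in the R848 response in 1 of the fits made. In the 8-array limma fit restricted to the 6369 genes that both deposited untreated arrays detected, its R848 response was 1.76 smaller in knockout than in wild type (knockout minus wild type -1.76 on the log2 scale, SE 0.30, limma adjusted p = 0.0305). The responses in that fit were 1.73 in knockout and 3.50 in wild type. Over all 7153 genes the same difference had an SE of 0.34 and a limma adjusted p of 0.173, so the call rests on which genes share the estimate of the spread, and that spread comes from the untreated pairs alone, which may be technical repeats. With 1 R848 array per genotype, the test says only that the difference exceeds the spread within those pairs.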

How the results depend on the processing

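No single gene past the size of 1 or called changed sign under the alternatives, whereas the median CpG B effect over the 26 genes, -0.00053 as reported, was 0.04 on 8 arrays. Counts of the 26 genes past 2-fold or called stayed within 1.5 times the reported count in 138 of 164 comparisons with another setting, and single genes kept their side of the threshold in 348 of 359. Leaving out arrays did more: 26 of 68 counts moved by over 1.5 times, and 59 of 172 single-gene calls were lost. With an offset of 50, the count for knockout against wild type with R848 was 1 and for the difference of R848 responses 1 (2 each as reported), and the CpG B effect gave 2 calls (1 as reported). Median scaling gave 0 for knockout against wild type with CpG B (1 as reported) and 2 for the CpG B effect. Genes detected on every array gave 1 and 1 for the R848 genotype comparison and the difference of R848 responses, where Map3k14 drops out of the filter, and 3 for the CpG B effect. A size of 1.5-fold, a looser bound by construction, gave 7 (R848 in knockout), 12 (R848 in wild type), 5 (CpG B in knockout), 4 (CpG B in wild type), 7 and 3 (knockout against wild type with R848 and CpG B), 8 (R848 against CpG B in wild type), and 5 and 2 (differences of the R848 and CpG B responses). Without a detection filter the genotype effect had 0 calls (1 as reported), with more genes in the adjustment. On 8 arrays the additive effects gave 12 calls for R848 (8 as reported), 7 for CpG B, 1 for R848 minus CpG B and 2 for genotype. Among all genes that fit called 15.7% higher and 22.6% lower for R848, and 8.44% and 9.95% for CpG B. It called 1.51% and 1.31% for R848 minus CpG B, and 3.63% and 3.73% for genotype. In the 8-array fit on genes detected on both untreated arrays the calls were 7 for CpG B in knockout and 5 in wild type, 1 for knockout against wild type with CpG B, 6 for R848 against CpG B in wild type and 1 for the difference of R848 responses, against 3, 2, 0, 3 and 0 over all genes. Apart from the 8-array fit over all genes, shares of all genes under these alternatives are not given here. Those counts therefore show dependence on the setting only. Except where the construction shows it, the cause was not tested.

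Leaving out 1 of the 6 arrays gave 0 to 11 calls for R848, 0 to 6 for CpG B, 0 to 5 for R848 minus CpG B and 0 to 1 for genotype. Leaving out 1 of the 4 untreated arrays of the 8 gave 3 to 5 calls for R848 in knockout, 0 to 0 for untreated knockout against wild type, 0 to 1 for the same with R848, and 1 to 1 for R848 against CpG B in wild type. The arrays left out leave a lone array in a group, which is assumed to vary like the others. Beyond the values given above, shares over all genes in these fits are not given here. No paired analysis was possible because the labels carry no replicate numbers. Mapk6 lost its R848 call without normexp, with median scaling, without the filter and without the genotype term (limma adjusted p between 0.0591 and 0.143). Dim genes near the background, such as Map3k12, Map3k14 and Mapk7, have limits in place of folds on the arrays where they were not detected.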
